A study of Mus musculus with 15 samples.

Results

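Interferon-inducible GTPases of the guanylate-binding protein (GBP) and immunity-related GTPase (IRG) families were followed across the 5 groups of an RNA-seq experiment on MH-S cells, a mouse alveolar macrophage line transformed with SV40. The 10 members were taken by symbol from the 78317 gene identifiers of the count table, by a rule that uses no measured value, although the list of symbols was drawn up with earlier results of these data known. They comprise the GBPs Gbp2 (ENSMUSG00000028270), Gbp3 (ENSMUSG00000028268), Gbp5 (ENSMUSG00000105504), Gbp6 (ENSMUSG00000104713), Gbp7 (ENSMUSG00000040253) and Gbp9 (ENSMUSG00000029298), and the IRG proteins Irgm1 (ENSMUSG00000046879), Irgm2 (ENSMUSG00000069874), Igtp (ENSMUSG00000078853) and Iigp1 (ENSMUSG00000054072). All 10 had an identifier in the table, and 6 of them carried enough reads to be tested for differences.

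The study compared cells exposed to inhalable microrods, sequenced in bulk without selection for uptake, with resting and polarized cells. Untreated cells (M0) were kept for 24 h beside cells given LPS at 1 µg/mL with IFN-γ at 20 ng/mL (M1), cells given IL-4 at 20 ng/mL (M2), and cells exposed to 0.1 mg/mL of microrods made from calcium phosphate (CaP) or silica (SiO2) nanoparticles. Both rod types carried the same polymer layers and differed in the nanoparticle matrix. Per the paper their densities also differ, so the same mass per volume held different numbers of rods. The part of rod number in the results was not tested. Each group had 3 wells, the rods of each well came from their own preparation, and 1 passage of the line supplied all wells, so p-values measure the spread between wells and batches of that passage only.

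GBPs and IRG proteins are among the most strongly inducible genes of the IFN-γ response in mouse macrophages. GBPs are large GTPases that assemble on pathogen vacuoles and on bacteria in the cytosol, where they help to expose LPS to the inflammasome. IRG proteins are smaller: effector IRG proteins such as Iigp1 load onto pathogen vacuoles and break them, while the regulatory IRGM proteins Irgm1, Irgm2 and Igtp sit on the cell's own membranes and hold the effectors inactive there. IFN-γ signals through the kinases JAK1 and JAK2 and reaches such genes through short promoter elements, the GAS and the ISRE, of which the ISRE is bound by IRF1 among other factors.

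To show which letters of this kind lie before the members that the results turn on, the 120 bases before the annotated start of the 6 tested members are printed 5′ to 3′ on the gene's strand. They are taken from RefSeq on GRCm38.p6, whereas the counts were made on GRCm39. Capitals mark a GAS match, TTCNNNGAA, or an ISRE core match, GAAANNGAAA or its reverse complement TTTCNNTTTC.
Gbp2, chr3:142620543-142620662, strand +: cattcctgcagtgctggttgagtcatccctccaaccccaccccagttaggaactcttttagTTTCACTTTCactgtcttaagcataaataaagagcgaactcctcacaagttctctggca
Gbp3, chr3:142559924-142560043, strand +: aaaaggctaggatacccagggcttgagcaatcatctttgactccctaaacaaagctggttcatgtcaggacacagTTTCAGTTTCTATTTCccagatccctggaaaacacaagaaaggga
Gbp7, chr3:142530216-142530335, strand +: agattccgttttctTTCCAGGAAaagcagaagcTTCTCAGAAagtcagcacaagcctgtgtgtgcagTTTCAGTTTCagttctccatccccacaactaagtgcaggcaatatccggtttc
Irgm1, chr11:48871421-48871540, strand -: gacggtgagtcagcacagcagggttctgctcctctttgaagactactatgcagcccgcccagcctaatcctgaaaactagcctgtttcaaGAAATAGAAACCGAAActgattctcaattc
Irgm2, chr11:58214857-58214976, strand +: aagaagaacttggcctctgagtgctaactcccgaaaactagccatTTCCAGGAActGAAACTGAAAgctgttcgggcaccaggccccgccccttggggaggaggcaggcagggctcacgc
Igtp, chr11:58199436-58199555, strand +: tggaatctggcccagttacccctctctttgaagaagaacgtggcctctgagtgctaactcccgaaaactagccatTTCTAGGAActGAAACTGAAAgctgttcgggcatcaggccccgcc

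Within 250 bases before and 50 bases after the start, an ISRE core was found in all 7 members with a promoter entry (Gbp2, Gbp3, Gbp5, Gbp7, Irgm1, Irgm2 and Igtp), and 4 of them (Gbp5, Gbp7, Irgm2 and Igtp) also held a GAS. Gbp3 has another promoter entry, which held neither. No promoter was matched for Gbp6, Gbp9 and Iigp1. Among 32851 mouse promoters of the same length, 8.3% held a GAS, 3.44% an ISRE core and 0.454% both, searched on both strands. The matches were not particular to the members. Of 10 further GBP and IRG genes with a promoter entry, 6 held an ISRE core, 4 a GAS and 4 both. The core lay between 59 and 25 bases before the start in Gbp2, Gbp7 and Igtp, and the pairs of cores in Gbp3 and Irgm1 overlap each other. In Irgm2 and Igtp the start of the GAS lies 11 bases before the start of a GAAANNGAAA core, and the printed windows of these neighbours, shifted by 30 bases, were identical at 87 of 90 positions. The spacing of 11 bases in this orientation, looked for after it was seen in both genes, occurred in 5 of the 32851 promoters, those of Irgm2, Igtp and the further IRG genes Tgtp1, Tgtp2 and Gm12185. These matches are strings of letters and were not tested as binding sites.

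**Figure D1:**
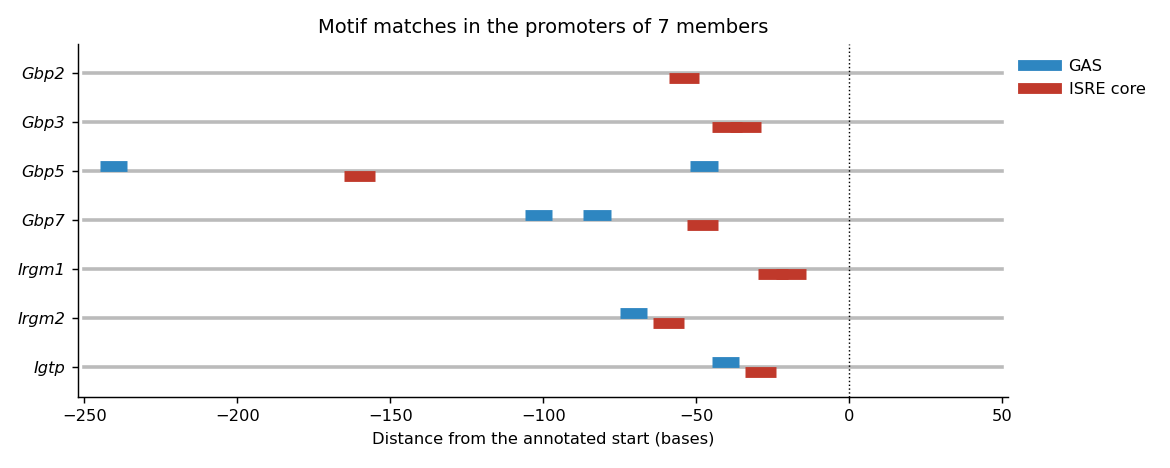
Positions of GAS matches (blue) and ISRE core matches (red) in the promoters of 7 members, in bases from the annotated start (dotted line). Every promoter drawn holds at least 1 ISRE core, and those of Gbp5, Gbp7, Irgm2 and Igtp also hold a GAS.

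The 15 libraries held between 8459643 and 68750050 counts. Levels are given as CPM, counts scaled to the library size after TMM normalization. The count of 1 read corresponded to 0.0143 to 0.132 CPM, so that a gene with 0 counts may lie at up to 0.0429 CPM in the deepest library and 0.395 CPM in the shallowest, the level of 3 counts, which covers counting error only. The macrophage genes Ptprc, Cd68, Adgre1, Csf1r and Lyz2 were read in all libraries (Cd68 at 677 to 1322 CPM), whereas Itgax was at 1.57 to 4.93 CPM, Marco at 0 to 2.82 CPM and Chil3 at 0 to 0.478 CPM, so that these 3 markers of alveolar macrophages were low or absent. The summed level of markers of epithelial cells, fibroblasts and T cells did not exceed 0.172 CPM in any library and that of B cells 0.430 CPM. Neutrophil markers summed to 0.486 to 1.30 CPM in M1 and to at most 0.308 CPM elsewhere, nearly all of it from S100a8, with S100a9 at 0 and Ly6g at 0 or 1 count in every library, and the part of this in the results was not tested. As a check of the labels, Il1b, an LPS-induced cytokine, was at 411 CPM in M1 and 1.07 CPM in M0, and Arg1, an IL-4-induced enzyme, was at 1550 CPM in M2 and 11.0 CPM in M0. M0 replicate 3, M2 replicate 2 and SiO2 replicate 2 stood apart from their groups on the second principal component (scores -42.7, -43.9 and -21.7), and the member calls were also computed without them. Each was the shallowest library of its group (8459643, 8594947 and 12646926 counts). The shallowest M1 library, replicate 3 with 10117846 counts, scored 4.29. The part of depth in these scores was not tested.

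The 10 members together were at a higher level in each M1 library than in any other library. Their summed level was 35.4 ± 5.00 CPM in M1 (SD, n = 3) and 18.8 ± 3.13 CPM in M0, against 17.6 ± 0.587 in M2, 17.1 ± 1.91 with CaP and 19.3 ± 2.22 with SiO2 microrods. The M1 libraries were at 40.1, 36.0 and 30.1 CPM and the highest of the other 12 libraries, SiO2 replicate 2, was at 21.9 CPM. This does not extend to the summed level of further family genes: 19 further GBP, IRG and very large inducible GTPase genes summed to 18.2 ± 0.571 CPM in M1 and 32.0 ± 4.61 CPM in M0 (SD, n = 3). Near copies weigh heavily in this sum. The IRG genes 9930111J21Rik1 and 9930111J21Rik2 were at means of 4.69 and 9.44 CPM in M0 and 1.08 and 2.09 CPM in M1. All 29 genes together were at 53.6 ± 4.45 CPM in M1 and 50.9 ± 6.49 CPM in M0, with overlapping libraries. In bulk RNA, more cells that express a gene and more RNA per cell cannot be told apart.

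In M1 against M0, 4 of the 6 tested members were higher and 0 were lower by edgeR's quasi-likelihood test, with calls made below an adjusted p of 0.05 for log2 fold changes beyond 0.5 in either direction. Over all 16654 genes tested, 14.1% passed this rule, 9.7% upwards and 4.37% downwards. The 4 were Gbp2, Gbp7, Gbp3 and Irgm1, which also passed with DESeq2, as did 10.4% of the genes it tested. The same 4 were the members whose M1 libraries all lay above all M0 libraries, as did 20.2% of all genes. The median log2 fold change was 1.52 over the 6 tested members and -0.01 over all genes. Gbp2 passed the filter on low counts only through its M1 level, so its call is a description and not support. Without it, 3 of 5 tested members were higher, with a median log2 fold change of 0.92, and these counts do not stand for all 10 members.

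**Figure D2:**
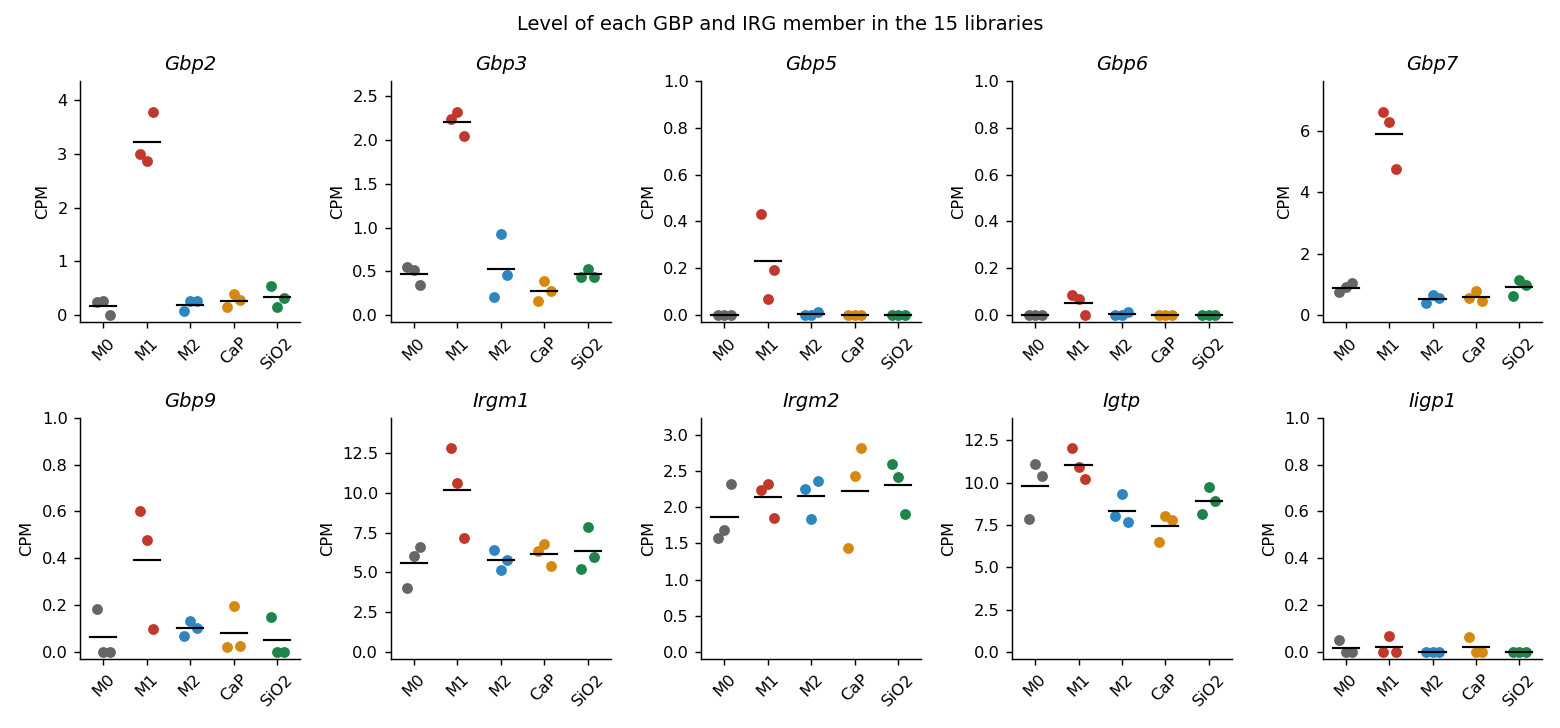
CPM of each of the 10 members in the 15 libraries (points, replicates 1 to 3 from left to right within a group) with the group mean (line), on a linear axis of its own per gene. The M1 points of Gbp2, Gbp3 and Gbp7 lie above all other points, the M1 points of Irgm1 overlap with SiO2 replicate 2, and Gbp5, Gbp6, Gbp9 and Iigp1 stay below 1 CPM.

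Gbp2, a lipid-anchored GBP that coats pathogen vacuoles, was at 0.237, 0.260 and 0 CPM in M0 replicates 1 to 3 and at 3.01, 2.87 and 3.79 CPM in the M1 replicates. These levels stand on 9, 4 and 0 counts in M0 and 35, 42 and 39 counts in M1. Every M1 library was above every other library, of which the highest was SiO2 replicate 1 at 0.538 CPM. The log2 fold change of M1 over M0 was 3.92 (SE 0.459, 95% interval 2.95 to 4.89), with an adjusted p of 2.28e-05 by edgeR, and rests on a gene that the M1 libraries alone brought into the test.

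Gbp7, which has been linked to the assembly of the NADPH oxidase on phagosomes, was at 0.738, 0.911 and 1.04 CPM in M0 and at 6.62, 6.29 and 4.76 CPM in M1. Here too the M1 libraries lay above all others, the next being SiO2 replicate 2 at 1.13 CPM. The log2 fold change was 2.80 (SE 0.275, 95% interval 2.21 to 3.39) with an adjusted p of 1.09e-05 by edgeR, the smallest among the members.

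Gbp3, a neighbour of Gbp2 and Gbp7 in the GBP cluster on chromosome 3, was at 0.553, 0.520 and 0.347 CPM in M0 and at 2.24, 2.32 and 2.04 CPM in M1. The M1 libraries were close to each other and above all other libraries, the highest of which was M2 replicate 2 at 0.921 CPM. The log2 fold change was 2.11 (SE 0.345, 95% interval 1.37 to 2.85), with an adjusted p of 9.15e-04 by edgeR. Of the 75-base windows of their transcripts, 0.955% in Gbp2, 2.06% in Gbp3 and 11.3% in Gbp7 also occur in transcripts of another gene, for Gbp7 mostly in Gm43802, which had 0 counts in every library. 

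The other GBPs were close to the limit of detection. Gbp5, which promotes inflammasome assembly and lies in the same cluster on chromosome 3, had 5, 1 and 2 counts in the M1 libraries (0.430, 0.0684 and 0.194 CPM), 1 count in M2 replicate 3 and 0 counts in the other 11 libraries. Gbp6, on chromosome 5, had 1, 1 and 0 counts in M1, 1 count in M2 replicate 3 and 0 elsewhere, and 67.3% of its windows are shared with other genes, mostly Gm43302, which also had 0 counts in every library. Gbp9, its neighbour, had 7, 7 and 1 counts in M1 and 7, 0 and 0 counts in M0, which is 0.602, 0.479 and 0.0972 CPM against 0.184, 0 and 0 CPM. None of the 3 passed the filter on low counts, so no fold change is given for them. At this depth a level of Gbp5 or Gbp6 in M0 below 0.0790 CPM, the value of 3 counts in the deepest M0 library, could not be seen.

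The regulatory IRGM proteins were read in every library, with smaller fold changes between M1 and M0 than the 3 induced GBPs. Irgm1, which acts on Golgi, mitochondrial and lysosomal membranes and in autophagy, was at 4.03, 6.05 and 6.60 CPM in M0 and at 12.8, 10.6 and 7.19 CPM in M1. M1 replicate 3 was little above the highest M0 library and below SiO2 replicate 2 at 7.87 CPM. The log2 fold change was 0.92 (SE 0.260, 95% interval 0.36 to 1.48), with an adjusted p of 0.0297 by edgeR, which over the alternatives ranged from 0.0183 to 0.150. The call was lost without M0 replicate 1 (log2 fold change 0.68, adjusted p 0.150 by edgeR), without M0 replicate 2 (0.0514), without M1 replicate 1 (0.111) and without M1 replicate 2 (0.0929). With the replicate number as a block it held over all 15 libraries (0.0463) but not over the 6 M0 and M1 libraries (log2 fold change 0.87, adjusted p 0.119 by edgeR).

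Irgm2, an IRGM protein of the Golgi that restrains noncanonical inflammasome activation, was at 1.58, 1.69 and 2.32 CPM in M0 and at 2.24, 2.32 and 1.85 CPM in M1. The groups overlapped, and the log2 fold change of 0.27 had a 95% interval from -0.40 to 0.94 (adjusted p 0.587 by edgeR). Igtp, also known as Irgm3 and found on the endoplasmic reticulum and on lipid droplets, was at 7.85, 11.1 and 10.4 CPM in M0 and at 12.0, 10.9 and 10.2 CPM in M1. Its groups overlapped as well, with a log2 fold change of 0.19 and a 95% interval from -0.21 to 0.59 (adjusted p 0.531 by edgeR). The upper ends of both intervals lie below the lower ends for Gbp2, Gbp3 and Gbp7, while the difference between genes was not tested. Irgm2 and Igtp share 4.78% and 7.8% of their windows, nearly all with each other.

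Iigp1, the effector IRG protein among the members, had 2, 0 and 0 counts in M0, 0, 1 and 0 counts in M1, 3, 0 and 0 counts with CaP microrods and 0 counts in the M2 and SiO2 libraries. It was at or under 3 counts in all 15 libraries, so neither a level nor a difference could be read at this depth. The cells therefore showed reads of the 3 regulatory IRG genes in every library and hardly any of Iigp1, in M1 as in the other groups. This holds for the members and not for all IRG genes. Ifi47, an IRG gene that is not a member, was at means of 7.73 CPM in M0 and 5.49 CPM in M1.

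The make-up of the member counts differed between M1 and the other groups. Irgm1, Irgm2 and Igtp together held 88.4% to 95.7% of the member counts in the 12 M0, M2, CaP and SiO2 libraries and 63.9% to 67.6% in the 3 M1 libraries, without overlap. Per kilobase of transcript, Igtp was at 5.35 ± 0.941 CPM per kb (SD, n = 3) in M0, Irgm1 at 2.56 ± 0.624, Irgm2 at 0.537 ± 0.114, Gbp7 at 0.221 ± 0.0377, Gbp3 at 0.177 ± 0.0412 and Gbp2 at 0.0659 ± 0.0572. In this order only Gbp7 and Gbp3 had overlapping M0 libraries. Igtp, Irgm1 and Irgm2 also led, in this order, with IL-4 and with either microrod.

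In M1 the order per kilobase changed below Igtp and Irgm1. Igtp at 6.04 ± 0.503 CPM per kb (SD, n = 3) and Irgm1 at 4.70 ± 1.30 overlapped between libraries. Gbp7 at 1.45 ± 0.244 and Gbp2 at 1.28 ± 0.197 overlapped with each other and lay above Gbp3 at 0.821 ± 0.0541 and Irgm2 at 0.615 ± 0.0732. With the longest coding length in place of the transcript length, Irgm2 lay above Gbp3 in M1 (1.74 against 1.18 CPM per coding kb).

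The M2 and microrod comparisons asked whether the family also moved with IL-4 or with exposure to particles. With IL-4, 0 of 6 tested members passed the rule against M0 by edgeR, as 4.13% of all genes did. By DESeq2 0 members passed as well (5.05% of all genes), and 0 members had an unadjusted edgeR p below 0.05 (17.2% of all genes). Gbp7 had the smallest p, at 0.409, 0.658 and 0.544 CPM in M2. All 3 libraries were below the M0 libraries, as for 8.2% of all genes, and the log2 fold change was -0.68 (SE 0.344, 95% interval -1.42 to 0.06, adjusted p 0.340 by edgeR). The other 5 had log2 fold changes from -0.23 for Igtp to 0.32 for Irgm2.

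With CaP microrods, 0 of 5 tested members passed against M0 by edgeR, as 0.409% of all 16621 genes did, and 0 passed with DESeq2, as 3.44% of all genes did. Gbp2 could not be tested in this model of 9 libraries and was at 0.144, 0.394 and 0.274 CPM with CaP, overlapping with M0. Gbp3 was the 1 member with an unadjusted p below 0.05, as 18% of all genes had. It was at 0.164, 0.394 and 0.274 CPM, overlapping with M0, with a log2 fold change of -1.03 (SE 0.393, 95% interval -1.91 to -0.15, adjusted p 0.213 by edgeR). Igtp was at 6.48, 8.02 and 7.80 CPM, with a log2 fold change of -0.39 (95% interval -0.84 to 0.06).

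With SiO2 microrods, 0 of 5 tested members passed by edgeR, as 0.0602% of all genes did. By DESeq2 0 members passed too (0.682% of all genes), and 0 members had an unadjusted edgeR p below 0.05 (9.27% of all genes). Irgm1 was at 5.19, 7.87 and 5.94 CPM, Irgm2 at 2.59, 2.42 and 1.90 CPM and Igtp at 8.12, 9.76 and 8.92 CPM, each overlapping with M0. The log2 fold changes of the 5 lay between -0.14 for Gbp3 and 0.36 for Irgm2, and no 95% interval reached beyond 1.11 upwards or -1.01 downwards. All 4 comparisons use the same 3 M0 libraries and are not independent of each other.

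Between the rod types, 0 of 5 tested members passed by edgeR, as 0.0241% of all genes did, and 0 with DESeq2, as 0.0874% did. All 5 log2 fold changes of CaP over SiO2 were below 0, from -0.89 for Gbp3 to -0.03 for Irgm1, with a median of -0.27 over the 5 and 0.03 over all genes. Gbp3 had an unadjusted p of 0.0488 by edgeR, where 1.87% of all genes were below 0.05, and an adjusted p of 1.00. Its 95% interval ran from -1.79 to 0.01, and its CaP libraries lay below the SiO2 libraries at 0.440, 0.529 and 0.436 CPM. Igtp also did not overlap between the rod types, as 4.68% of all genes did not in this direction, with a 95% interval from -0.72 to 0.18. The intervals of Gbp7 (-1.45 to 0.07), Irgm1 (-0.59 to 0.52) and Irgm2 (-0.75 to 0.62) leave room for differences of either sign.

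**Figure D3:**
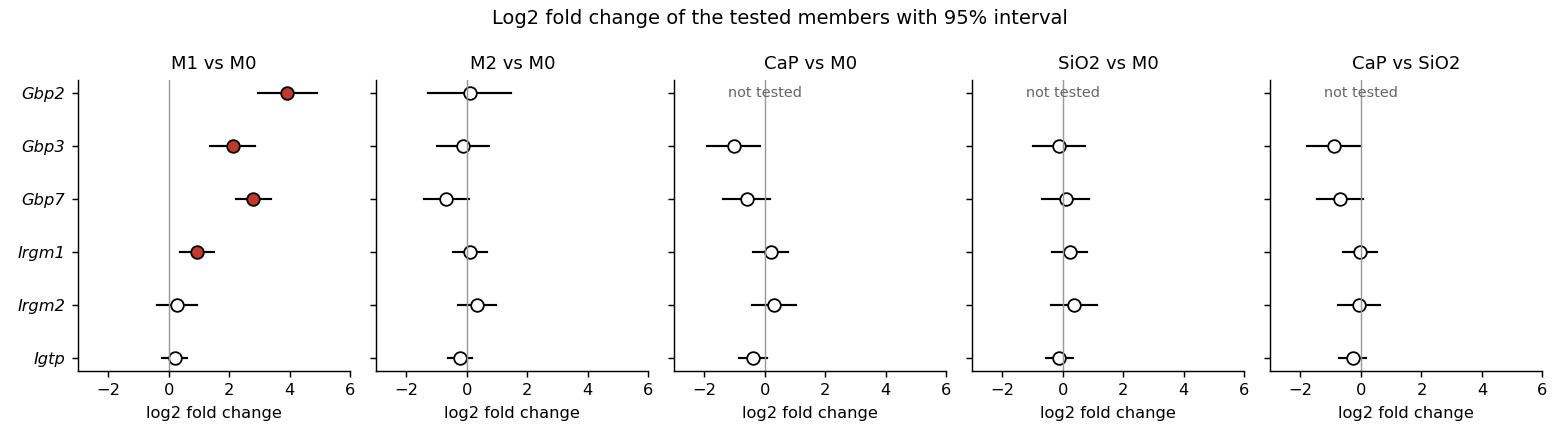
Log2 fold change (points) and 95% interval (lines) of the tested members in the 5 comparisons, with red points for those that passed the rule. Gbp2, Gbp3, Gbp7 and Irgm1 passed in M1 against M0, and none passed in the other 4 comparisons. Gbp2 was not tested in the rod comparisons.

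The further genes of both families gave few calls in M1. Of 22 further GBP, IRG and very large inducible GTPase genes, 19 had an identifier and 8 could be tested in M1 against M0. By edgeR 0 rose and 2 near copies fell, where 9.7% of all genes rose and 4.37% fell. With 8 genes, 0 rises cannot be told from the share over all genes. The median log2 fold change of the 8 was -0.67. The IRG gene 9930111J21Rik2 was at 9.59, 8.65 and 10.1 CPM in M0 and at 2.15, 2.67 and 1.46 CPM in M1. Its log2 fold change was -2.14 (SE 0.290, adjusted p 2.19e-04 by edgeR).

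The adjacent IRG gene 9930111J21Rik1 was at 3.50, 3.97 and 6.60 CPM in M0 and at 0.774, 1.30 and 1.17 CPM in M1, with a log2 fold change of -2.03 (SE 0.389, adjusted p 0.00312 by edgeR). These genes share 52.3% and 76% of their windows, mostly with each other, so the reads could have been split between them in the authors' counting and their falls are not separate measurements. Gm5431, a further gene of this kind, had a log2 fold change of -1.16 (adjusted p 0.0643) and Ifi47, an IRG gene also called Irgd, one of -0.47 (adjusted p 0.201). Irgq, an IRG-like gene that lacks a working GTPase site, had one of -0.86 (adjusted p 0.161).

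The very large inducible GTPase Gvin1 and its near copy Gm4070, which share 98.3% and 96.7% of their windows, had log2 fold changes of 0.26 and 0.23, and Gm8995 one of 0.26, none past the rule. With CaP microrods 0 of 7 tested genes of this list passed by edgeR and 0 with DESeq2, where 0.409% and 3.44% of all genes passed. An unadjusted edgeR p below 0.05 was held by 3, and by 18% of all genes. The 3 include both near copies, Gvin1 and Gm4070, which are not separate measurements. Of these, Gvin1 was at 1.48, 1.51 and 2.02 CPM with CaP against 3.29, 2.34 and 3.13 CPM in M0, a log2 fold change of -0.80 (adjusted p 0.150 by edgeR). With IL-4 0 of 8 and with SiO2 0 of 7 passed by edgeR or DESeq2, with 0 and 1 unadjusted edgeR p-values below 0.05 (17.2% and 9.27% of all genes). The untested genes were near 0: Gbp2b had 1 count in all, Gbp4, Gbp10 and Gbp11 at most 3 counts in a library, and Gm12250 none. Gbp8 had 0 counts in M0, 0, 2 and 2 in M1 and up to 7 with CaP, Gm4951 had at most 7 counts in a library, F830016B08Rik 1 count in all and Gm12185 up to 31 counts in M2 replicate 3 but at most 3 in M1, while Tgtp1 and Tgtp2 had 0, 0 and 1 counts each in M1 and 1 to 6 counts in the M0 libraries.

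**Figure D4:**
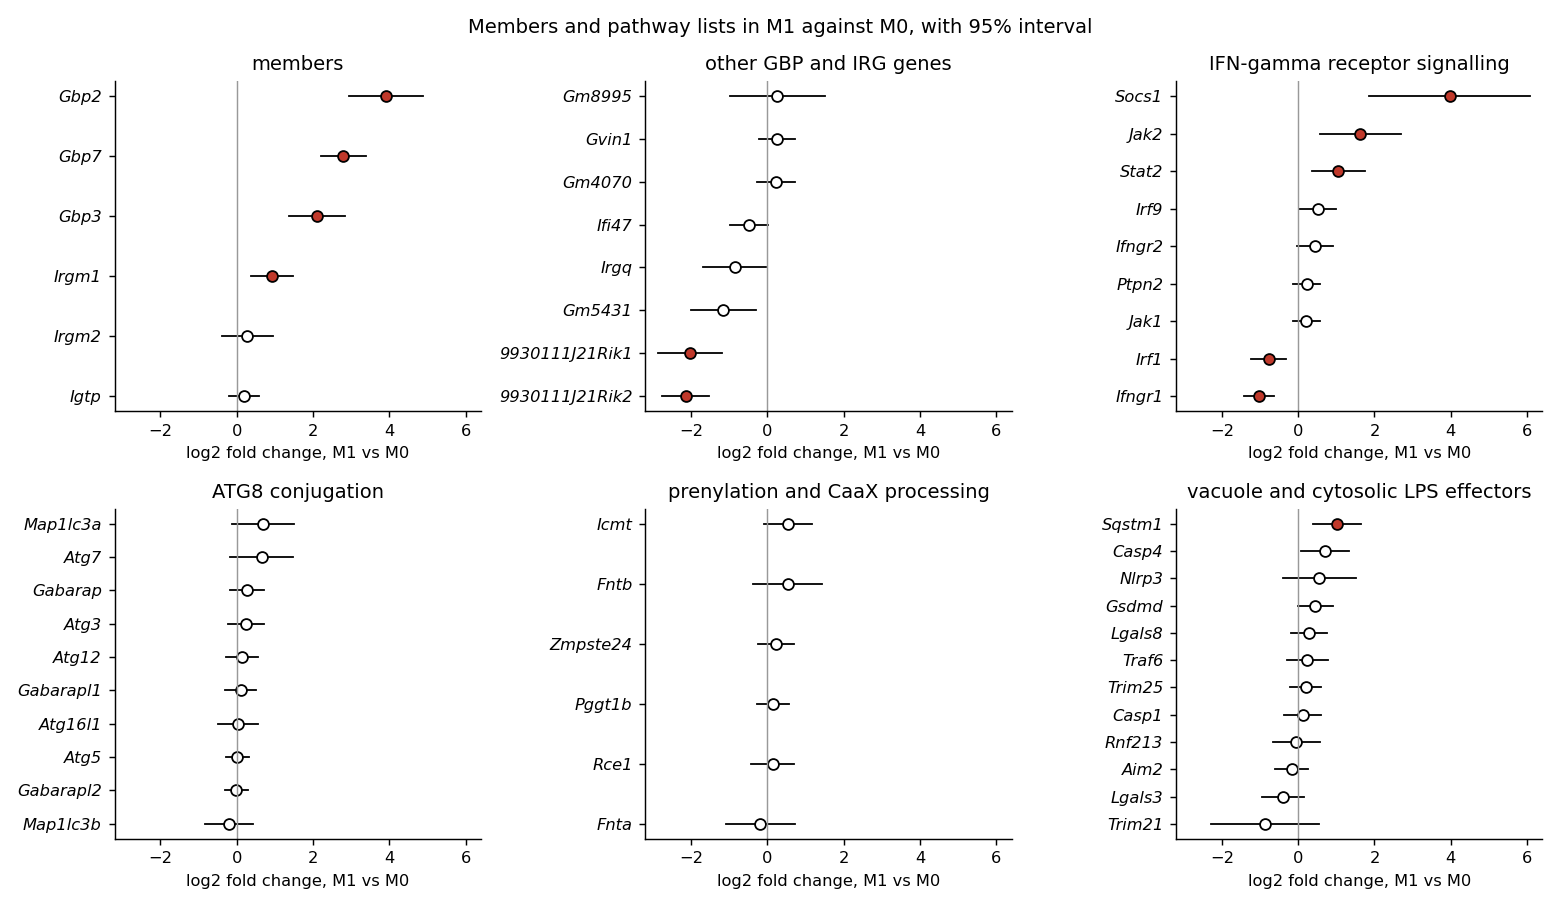
Log2 fold change of M1 over M0 (points) with its 95% interval (lines) for the tested members and for 5 lists of related genes, with red points for genes that passed the rule. The called members lie on the positive side, both called genes of the other GBP and IRG list on the negative side, and the IFN-γ signalling list has called genes on both sides.

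Of 9 genes of IFN-γ receptor signalling, 3 were higher and 2 lower in M1 by edgeR, where 9.7% of all genes were higher and 4.37% lower. The median log2 fold change of the 9 was 0.45. Ifngr1, the ligand-binding receptor chain, was at 54.6, 54.2 and 58.3 CPM in M1 and at 99.5, 122 and 119 CPM in M0, a log2 fold change of -1.03 (SE 0.185, adjusted p 0.00197 by edgeR). Socs1, the feedback inhibitor of JAK1 and JAK2, was at 1.81, 7.66 and 10.9 CPM in M1 and at 0.369, 0.520 and 0.463 CPM in M0, a log2 fold change of 3.97 (SE 0.985, adjusted p 0.0152 by edgeR). All M1 libraries of Socs1 lay above all M0 libraries, as for 20.2% of all genes. The call of Socs1 held in 13 of 15 alternatives. It was lost without M0 replicate 1 (adjusted p 0.0905 by edgeR) and without M1 replicate 3 (0.0575).

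Jak2, the kinase bound to the receptor chain Ifngr2, had a log2 fold change of 1.63 (SE 0.496, adjusted p 0.0418 by edgeR), and Stat2, a subunit of the ISRE-binding complex, one of 1.05 (SE 0.319, adjusted p 0.0406). The call of Jak2 held in 8 of 15 alternatives. It was lost with thinned counts (adjusted p 0.0798 by edgeR) and without any 1 of the M0 or M1 libraries (0.0582 to 0.158). The call of Stat2 held in 5 of 16 alternatives and was lost with the replicate block over all 15 libraries (adjusted p 0.0549 by edgeR) and over the 6 compared libraries (0.0724). Irf1, an ISRE-binding factor, was lower in M1, at 4.21, 4.17 and 4.28 CPM against 6.14, 8.20 and 7.41 CPM in M0, a log2 fold change of -0.77 (adjusted p 0.0290 by edgeR). Its call held in 8 of 16 alternatives and was lost with the block over the 6 compared libraries (adjusted p 0.0520 by edgeR). Irf1 was named beside the rule, which took the 4 called genes with the largest change, and was chosen after its values were seen. The number of called genes of this list depended on single libraries: it was 3 without M1 replicate 1, 2 without M0 replicate 1, 2 or 3 or M1 replicate 2, and 1 without M1 replicate 3, where Ifngr1 alone passed.

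With IL-4, Socs1 was the only called gene of the list, at 75.3, 12.5 and 139 CPM in M2, a log2 fold change of 7.47 (adjusted p 4.04e-04 by edgeR). Of all genes, 4.13% passed with IL-4. In neither rod comparison with M0 did any of the 9 pass by edgeR or DESeq2, with 0 unadjusted edgeR p-values below 0.05 for CaP and 1 for SiO2 (18% and 9.27% of all genes). The M2 libraries of Socs1 all lay above the M1 libraries, although 0 members passed in M2.

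In 2 lists of genes on which some of the proteins depend after translation, no gene passed in M1. The ATG8 conjugation system (10 genes) delivers GBPs and effector IRG proteins to vacuoles. Prenylation and CaaX processing (6 genes) anchor some GBPs, such as Gbp2, to membranes and not all of them. Of the genes of both lists, 0 passed in M1 by edgeR or by DESeq2. An unadjusted edgeR p below 0.05, which 27.7% of all genes had, was reached by 0 of them. The median log2 fold changes were 0.12 and 0.18. The intervals do not exclude sizeable changes, as for Map1lc3a, an ATG8 protein (log2 fold change 0.69, 95% interval -0.12 to 1.51), and Fntb, the farnesyltransferase beta subunit (0.53, -0.38 to 1.43), both named after their values were seen. Of 12 genes that act at damaged vacuoles or on cytosolic LPS, 1 was higher in M1 by edgeR, where 9.7% of all genes were higher. This was Sqstm1, a ubiquitin-binding autophagy receptor, at 201, 290 and 331 CPM against 90.9, 167 and 148 CPM in M0, a log2 fold change of 1.02 (SE 0.294, adjusted p 0.0327). Its call was lost without M0 replicate 1 (adjusted p 0.138), M0 replicate 3 (0.0601), M1 replicate 2 (0.0955) or M1 replicate 3 (0.130), and with the 6 compared libraries alone (0.0548). The mean of Sqstm1 was also above that of M0 with either microrod, but it was not called there by edgeR or DESeq2. It was at 274 CPM in M1, 135 CPM in M0, 267 CPM with CaP and 255 CPM with SiO2. The log2 fold changes were 0.99 with CaP (adjusted p 0.141 by edgeR) and 0.92 with SiO2 (0.387).

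With CaP microrods the same list had 1 called gene by edgeR, where 0.409% of all genes passed. This was Lgals3, the galectin that marks ruptured vacuoles, at 1687, 1828 and 2185 CPM against 564, 1037 and 819 CPM in M0. The log2 fold change was 1.24 (SE 0.210, adjusted p 0.0475 by edgeR), and the list held 0 called genes without M0 replicate 1 or 3 or without CaP replicate 2 or 3, and 2 without CaP replicate 1. It also held 0 with thinned counts, with a replicate block, with the legacy quasi-likelihood and without M0 replicate 3 and SiO2 replicate 2 together. With SiO2 microrods Lgals3 was at 1775, 1771 and 1705 CPM with a log2 fold change of 1.12 (adjusted p 0.126 by edgeR). There 0 genes of the list passed by edgeR (0.0602% of all genes) and 1, Lgals3, with DESeq2 (0.682%). Unadjusted edgeR p-values below 0.05 were held by 2 genes of the list (9.27% of all genes). In the ATG8 and prenylation lists 0 genes passed with either microrod by edgeR. An unadjusted edgeR p below 0.05 was held by 3 and 1 genes with CaP (18% of all genes) and by 2 and 1 with SiO2 (9.27%). DESeq2 called Pggt1b, a prenyltransferase subunit, with CaP (3.44% of all genes). With IL-4, 0 genes of the 3 lists passed by edgeR (4.13% of all genes). Unadjusted edgeR p-values below 0.05 numbered 2, 0 and 3 in the ATG8, prenylation and vacuole lists (17.2% of all genes). DESeq2 called 3 genes of the vacuole list, Aim2, Gsdmd and Lgals3 (5.05% of all genes). Between the rod types 0 genes of any list passed by edgeR or DESeq2, and 0 had an unadjusted p below 0.05.

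The 5 genes whose log2 fold changes over M0 in the 4 treated groups came closest to the median of the tested members were Sez6, Sag, Ubr1, Gm43775 and ENSMUSG00000133481, with root mean square differences of 0.0311 to 0.0712 among 10306 genes at 5 CPM or more in M1. In a fit of all 15 libraries, where 6 members including Gbp2 were tested in every group, the member medians were 1.52 in M1, -0.02 in M2, -0.10 with CaP and 0.16 with SiO2 microrods, and for Sez6 they were 1.49, -0.06, -0.07 and 0.19. The M1 median is the value of no member and lies between Gbp3 at 2.11 and Irgm1 at 0.92. Ranked by the largest absolute difference instead, only 3 of the 5 genes remained among the nearest. None of the 5 belongs to the lists above, and the likeness rests on 4 values that share the M0 libraries.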

How the data were processed

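RNA was sequenced from 15 Smart-seq2 libraries of MH-S cells, 3 in each of 5 groups taken from the sample labels. Per the study's methods, the authors ran nf-core/rnaseq, in which STAR aligned the reads and Salmon quantified them, on GRCm39 per the labels, and deposited whole-number counts per Ensembl gene that were not normalized. Salmon's estimates may have been rounded, and reads of near copies were divided at that step.

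Symbols for 51487 of 78317 identifiers came from a GENCODE annotation of another build, used also for transcript lengths, and promoters from RefSeq. The tests were run with edgeR 4.0.16 in R 4.3.3 (filterByExpr, TMM, glmQLFit and glmQLFTest) and Benjamini-Hochberg adjustment over all genes tested. The comparisons of M1 and M2 used all 15 libraries (16654 genes), and those of the microrods used 9 libraries (16621 genes), as the study did. DESeq2 1.42.0 was an alternative, beside other scaling, filters, thinning to the smallest library, a replicate block and leaving out each library. The legacy quasi-likelihood, coding lengths, leaving out 3 libraries and a block within the 6 M0 and M1 libraries were added after seeing the data. The labels do not say what a replicate number shares. Deviations of same-numbered M0 and M1 libraries correlated at 0.21 to 0.29 in all 3 pairs, against -0.31 to 0.07 in the 6 other pairs. Over all groups the median was -0.005 in 30 same-numbered pairs and 0.005 in 60 others. Whether the numbers pair M1 with M0 cannot be settled from 3 libraries a group. The main fit has no replicate term, and results with a replicate block are given beside it. The test was checked on simulated counts. A gene of the IFN-γ signalling list is not reported here.

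The member symbols and the lists were chosen with earlier results of these data known. Beyond the 10 members, the text names up to 4 called genes of each list with the largest change in M1, list genes called elsewhere, the further GBP and IRG genes tested and the 5 genes nearest in pattern. Intervals of levels at 0 to 3 counts cover counting error only, since amplified reads without molecular identifiers are not independent molecules. With 3 libraries a group, an exact permutation test cannot go below 0.1, so p-values come from the models fitted across all genes. Each replicate pair within a group differed by more than sampling noise, and all were kept as separate samples.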

Additional observations from a re-analysis of the deposited data

How the results depend on the processing

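Of the 10 members, Gbp3 and Gbp7 kept their call in M1 against M0 in all 15 alternatives that could test them (log2 fold changes 2.01 to 2.28 and 2.59 to 2.92). Gbp2 was also called in all 15 (3.68 to 4.21). It passed the main filter only through its M1 level, so this is a description and not support. Irgm1 kept its call in 8 of 16 alternatives (0.68 to 1.11). It was lost also without a filter (adjusted p 0.0819 by edgeR), with thinned counts (0.0803) and with the 6 compared libraries alone (0.105). The number of members called in M1 was 3 or 4 with 1 library left out. It was 1 of 3 tested with at least 10 counts in every library, a filter that removed Gbp2, Gbp3 and Gbp7. In the other comparisons 0 members were called under any alternative run. Without M0 replicate 3, M2 replicate 2 and SiO2 replicate 2 together, the same 4 members were called in M1.

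The number of genes called moved more than 1.5 times in these cases, the cause of which was not tested. In M1 against M0 (2342 genes) it was 3610 without those 3 libraries and 1511 to 2064 without 1 library. In M2 against M0 (687) it was 1141 without a filter, 456 with thinned counts, 98 with the 6 compared libraries and 316 to 1361 without 1 library. For CaP against M0 (68) it was 590 with DESeq2, 178 without a filter, 40 thinned, 109 with all 15 libraries, 16 without those 3 libraries and 13 to 743 without 1 library. For SiO2 against M0 (10) it was 123 with DESeq2, 17 without a filter, 44 with all 15 libraries, 1 without those 3 libraries and 0 to 5 without 1 library. For CaP against SiO2 (4) it was 15 with DESeq2, 8 without a filter, 2 where every library had 10 counts or more, 1 without those 3 libraries and 1 to 3 without 1 library.

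In the comparisons other than M1 with M0, same-numbered libraries were not alike in every pair. Their deviations correlated from -0.70 to -0.06 for M2 with M0, -0.24 to 0.53 for CaP with M0, -0.53 to 0.48 for SiO2 with M0 and -0.12 to 0.60 between the rod types. With a replicate block, 4 members were called in M1 and 0 elsewhere, and genes called fell to 2121, 504, 28, 1 and 1 in the order above. Within the 6 M0 and M1 libraries, the block gave 3 members (without Irgm1) and 2593 genes. Of the called genes named in M1, the losses given beside Irgm1, Stat2 and Irf1 were the only ones under either block. Low counts limit Gbp5, Gbp6, Gbp9 and Iigp1 most.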
